A study of Mus musculus with 12 samples.

Results

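Vascular endothelial growth factors (VEGFs) are secreted ligands that bind receptor tyrosine kinases such as FLT1 and the co-receptors neuropilin-1 and neuropilin-2, and drive blood vessel growth. Vegfa is a classical target of hypoxia-inducible factor 1, a dimer of the oxygen-labile HIF1A subunit and the constitutive ARNT subunit, and VHL is the substrate receptor of the ubiquitin ligase that marks HIF1A for degradation when oxygen is present. Fat tissue is a known source of VEGF-A. CPEB4 is an RNA-binding protein that recognises cytoplasmic polyadenylation elements in 3′ UTRs and acts on poly(A) tail length and translation. The genes described here are 9 members of this axis, chosen by symbol from a deposited table of counts per 3′ UTR with 20586 features: the ligands Vegfa, Vegfb and Vegfc, the receptors Flt1, Nrp1 and Nrp2, and the regulators Hif1a, Arnt and Vhl. Each matched 1 feature, and 8 of the 9 passed the filter on low counts, as did 8680 features in all.

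The study asked which RNAs co-precipitate with CPEB4 in fat cells under lipid load. RNA immunoprecipitation (RIP-seq) was done on 3T3-L1 adipocytes, a clonal mouse line that is induced to become fat cells in culture, and the labels name no vascular cells. All 12 libraries came from cells induced until day 2 with 2 µM rosiglitazone, 10 µg/mL insulin, 0.5 mM IBMX and 1 µM dexamethasone, kept in insulin, and from day 8 exposed for 24 h to 500 µM free fatty acids, of which 300 µM was palmitic, 100 µM oleic and 100 µM linoleic acid. The groups were RNA precipitated with anti-CPEB4 (CPEB4 IP), RNA precipitated with a control antibody (IgG IP) and RNA of the extract before precipitation (Input), with 4 libraries each. No culture without fatty acids, under low oxygen or without CPEB4 was analysed here, so every value below compares RNA fractions of the same treated cells. Only Input RNA was poly(A)-selected, so a difference of either precipitation from Input cannot be told apart from that selection, whereas CPEB4 IP and IgG IP shared their handling as far as the labels state.

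Libraries differed in depth. Total counts ran from 858028 to 1578084 counts in Input, from 88013 to 622976 in IgG IP and from 1114911 to 1159188 in CPEB4 IP, and 3 counts corresponded to 8.88 to 23.1 CPM (counts per 1e6 scaled counts) in IgG IP against at most 2.96 in the other groups. A single 3′ UTR feature, that of Lars2, held 28.6 to 63.9% of each IgG IP library, 7.79 to 14.1% of Input and 4.60 to 23.7% of CPEB4 IP. In both precipitations its share was higher in replicates 3 and 4 than in replicates 1 and 2. Replicates 1 and 2 carry library numbers from 726 to 731 and replicates 3 and 4 numbers from 393 to 398. Libraries of the same group were more alike within these series than across them. The chi-square per degree of freedom was 1.63 and 1.64 within and 13.9 to 16.3 across the series in IgG IP. It was 3.09 and 4.57 against 20.1 to 33.8 in CPEB4 IP, and 10.9 and 25.9 against 32.6 to 40.7 in Input. These values use unscaled counts with the Lars2 feature included. The labels do not say whether replicates were separate cultures; the p-values then reflect the spread among these libraries, which may be technical. The summed CPM of 12 adipocyte markers was 12768 to 26520 in Input, 13389 to 21865 in IgG IP and 20866 to 23550 in CPEB4 IP, with none at 0 in any group. Single markers went either way, Cfd from a mean of 3213 CPM in Input to 29.2 in CPEB4 IP and Cd36 from 585 to 1474. The 11 fibroblast and preadipocyte markers summed to 1224 to 2611 CPM in Input, 382 to 1059 in IgG IP and 281 to 608 in CPEB4 IP. Fewer cells expressing a gene and less of its RNA per cell cannot be told apart in these bulk libraries.

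The 3′ UTR features of the members lie on mouse genome build mm10, as the deposited table gives them. Vegfa was counted over 1865 bases at chr17:46016993-46018857 on the minus strand (ENSMUST00000024747), Vegfb over 395 bases at chr19:6982473-6982867 on the minus strand (ENSMUST00000025914), and Vegfc over 386 bases at chr8:54186069-54186454 on the plus strand (ENSMUST00000033919). Flt1 was counted over 3971 bases at chr5:147635159-147639129 on the minus strand (ENSMUST00000110529), Nrp1 over 2648 bases at chr8:128502815-128505462 on the plus strand (ENSMUST00000026917) and Nrp2 over 3058 bases at chr1:62815638-62818695 on the plus strand (ENSMUST00000102822). Hif1a was counted over 1827 bases at chr12:73945704-73947530 (ENSMUST00000110461), Arnt over 1847 bases at chr3:95495394-95497240 (ENSMUST00000090804) and Vhl over 2064 bases at chr6:113629570-113631633 (ENSMUST00000035673), all on the plus strand. The Hif1a feature overlaps the RefSeq gene Gm15283, and since the strand setting of the counting is not given in the sources used here, reads of the 2 genes may be mixed in the Hif1a values. Vegfb and Vegfc thus had UTRs about as short as each other, and every other member was counted over a longer one.

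Vegfa, the main angiogenic ligand of fat tissue, had the largest log2 fold change of the members between CPEB4 IP and the control antibody. Its CPM in replicates 1 to 4 was 185, 155, 93.8 and 129.6 in Input, 418, 331, 387 and 325 in IgG IP, against 2145, 2222, 1297 and 1114 in CPEB4 IP. Every CPEB4 IP library stood above every IgG IP library and every IgG IP library above every Input library, and within CPEB4 IP replicates 1 and 2 were the higher ones. The means were 141 ± 38.7 CPM in Input, 365 ± 44.6 in IgG IP and 1695 ± 571 in CPEB4 IP (SD, n = 4 each), resting on 727, 309 and 8455 counts. The CPEB4 IP level exceeded that of IgG IP 4.64-fold, or 2.21 in log2 units (SE 0.34, edgeR quasi-likelihood adjusted p = 0.00188), higher in 4 of 4 replicates and at percentile 94.1 of all tested features. Over Input, Vegfa was higher by a log2 difference of 3.59 with CPEB4 (SE 0.35, adjusted p = 6.73e-07) and of 1.37 with IgG (SE 0.33, adjusted p = 0.00333). Vegfa RNA was therefore already over-represented in the control precipitation relative to Input, and the excess with CPEB4 is measured on top of that. In IgG IP over Input it stood at percentile 75.7 of all tested features, and the median of features of similar length was 0.67 there. The part of length in the Vegfa values was not tested. The call over IgG IP was lost when replicate 1 was left out of all groups (1.99, adjusted p = 0.0901), when replicate 2 was (2.01, adjusted p = 0.0543), and with replicates 3 and 4 alone (1.76, adjusted p = 0.137), and Vegfa stayed past the threshold when any 1 of the 12 libraries was left out.

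Vegfb, a ligand of FLT1 known for actions on metabolism and vessel survival more than on sprouting, lay the other way. Its CPM in replicates 1 to 4 was 68.7, 75.4, 95.8 and 83.9 in Input, 48.4, 61.5, 57.8 and 56.2 in IgG IP, against 13.3, 9.21, 26.5 and 27.7 in CPEB4 IP. All 4 CPEB4 IP libraries were below all IgG IP libraries, which in turn were all below Input. The means were 80.9 ± 11.7 CPM in Input, 56.0 ± 5.52 in IgG IP and 19.2 ± 9.32 in CPEB4 IP (SD, n = 4), from 408, 48 and 92 counts. Vegfb was lower with CPEB4 than in Input, at -2.07 in log2 units (SE 0.44, adjusted p = 0.000926). Against IgG IP the log2 fold change was -1.54 (SE 0.46) and the adjusted p of 0.0585 missed the threshold. Of 26 alternative settings 6 passed it, among them the fit of both precipitations alone (-1.70, adjusted p = 0.00557). That fit called 2272 of all tested features, where the main fit called 510. In IgG IP against Input the log2 fold change of Vegfb was -0.53 (SE 0.44, adjusted p = 0.364). The Vegfb UTR belongs to the shortest of 4 length classes of tested features, 4 to 626 bases, whose median over Input was -2.67 with CPEB4 and -2.70 with IgG on the log2 scale, and 0.04 between the precipitations, and the part of length in the Vegfb values was not tested.

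Vegfc, the lymphatic growth factor, was hardly counted outside 1 library. In replicates 1 to 4 it had 44, 0, 0 and 0 counts in Input, 0, 1, 0 and 0 in IgG IP, against 4, 1, 1 and 0 in CPEB4 IP. A single Input library held 44 of its 51 counts, and it was not tested. Among the other ligands, the placental growth factor gene Pgf had 0, 3 and 8 counts summed over Input, IgG IP and CPEB4 IP, and Figf, which encodes VEGF-D, had 23, 9 and 25. Neither passed the filter, so Vegfa and Vegfb were the ligands of the family that could be measured.

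**Figure D1:**
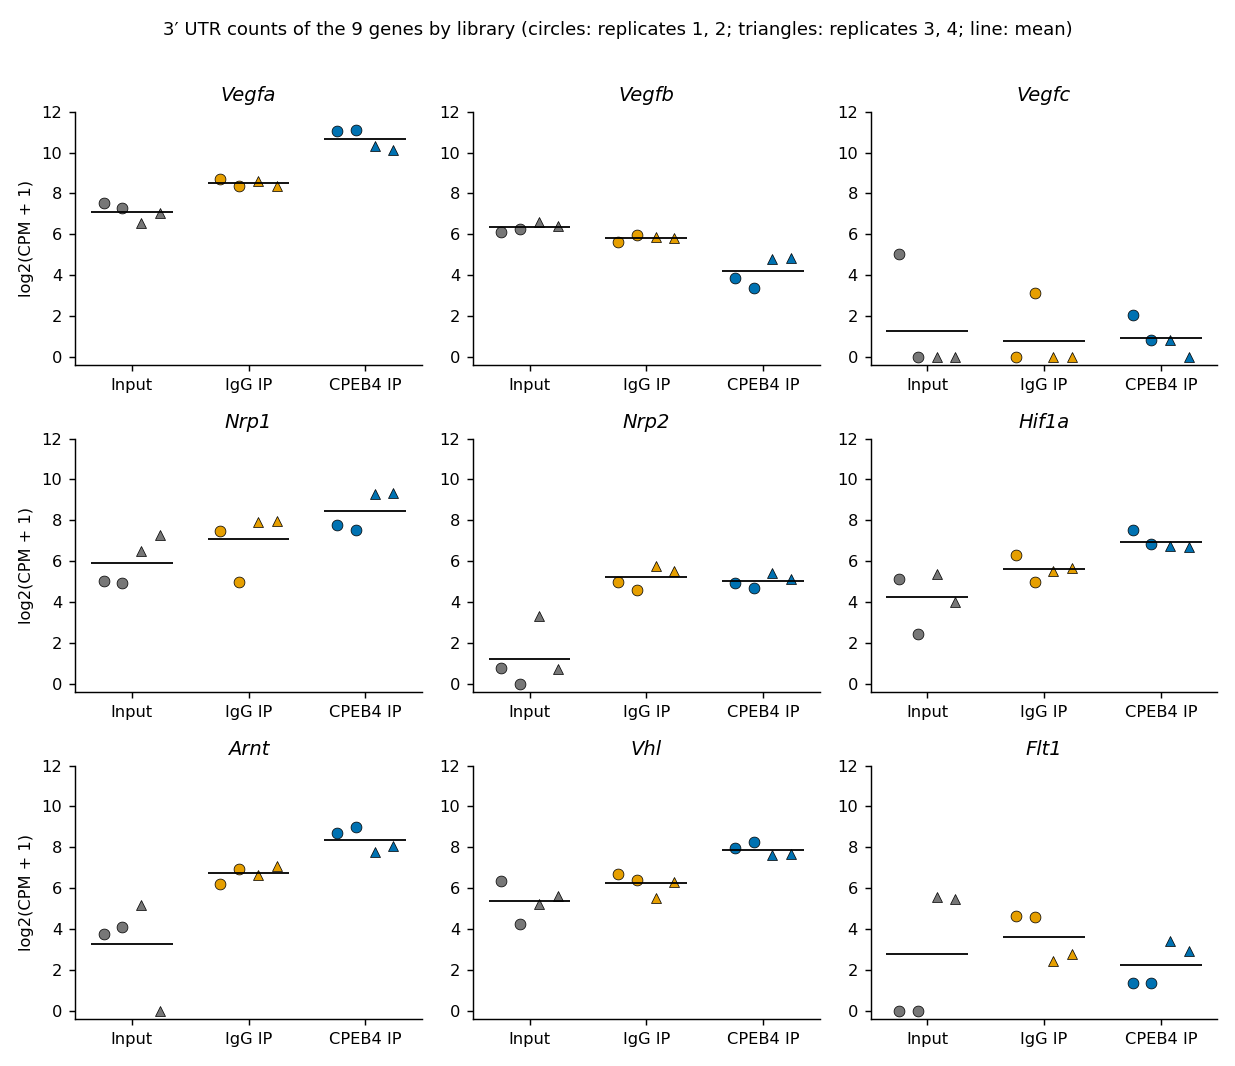
Level of the members in each library as log2(CPM + 1), with circles for replicates 1 and 2, triangles for replicates 3 and 4, and a line at the mean of each group's 4 libraries. Vegfa separates the groups in the order Input, IgG IP, CPEB4 IP, Vegfb shows the opposite order, and Nrp1 is higher in the triangles than in the circles in every group.

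Flt1, the tyrosine kinase receptor for VEGF-A and VEGF-B that is best known from endothelial cells, was weakly and unevenly counted. It had 0, 0, 47 and 67 counts in Input replicates 1 to 4, 4, 3, 1 and 2 in IgG IP, against 2, 2, 12 and 7 in CPEB4 IP. Input replicates 3 and 4 held the whole Input signal, and the groups overlapped. The means were 22.2 ± 25.7 CPM in Input, 14.4 ± 10.7 in IgG IP and 4.80 ± 3.98 in CPEB4 IP (SD, n = 4). No comparison passed the threshold, the log2 estimates being -1.47 (SE 1.40, adjusted p = 0.581) between the precipitations, -2.19 (SE 1.28, adjusted p = 0.164) with CPEB4 over Input, and -0.72 (SE 1.35, adjusted p = 0.713) with IgG over Input. In replicates 1 and 2 Input held no Flt1 count, IgG IP held 7 and CPEB4 IP held 4. Scaled for depth and set against a floor of 3 counts over both Input libraries, these are 19.7-fold and 1.29-fold. The IgG IP fold rests on those 7 counts in shallow libraries and is not a size. In replicates 3 and 4 Input was the higher group, with a mean of 44.5 CPM against 5.18 in IgG IP. Of 14 endothelial markers, Tek, Tie1, Emcn, Vwf, Esam and Robo4 were at 0 in all Input libraries. The 13 markers other than Flt1 summed to 38.7, 28.4, 62.2 and 59.7 CPM in Input replicates 1 to 4, 6.05, 7.69, 88.9 and 35.5 in IgG IP, against 14.1, 11.5, 37.0 and 30.5 in CPEB4 IP, so that in every group they were higher in replicates 3 and 4, as Flt1 was in Input and CPEB4 IP but not in IgG IP, and their part in the Flt1 values was not tested. The other VEGF receptor kinases were not tested, with 50, 1 and 14 counts of Kdr and 12, 5 and 16 of Flt4 over Input, IgG IP and CPEB4 IP.

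Nrp1 and Nrp2 encode co-receptors without a kinase domain that bind VEGFs and class 3 semaphorins. Nrp1 had a CPM of 31.4, 29.3, 88.9 and 156 in Input replicates 1 to 4, 176, 30.8, 245 and 252 in IgG IP, against 218, 184, 619 and 643 in CPEB4 IP. Replicates 3 and 4 were above replicates 1 and 2 in each group, CPEB4 IP did not overlap Input, and it overlapped IgG IP. The means were 76.5 ± 60.0, 176 ± 102 and 416 ± 249 CPM (SD, n = 4). Over Input, Nrp1 was higher with CPEB4 by 2.44 log2 units (SE 0.64, adjusted p = 0.0043). It did not pass the threshold against IgG IP (1.21, SE 0.63, adjusted p = 0.283), although each CPEB4 IP library exceeded the IgG IP library of the same number. With IgG over Input it was 2.34-fold higher without passing the threshold (SE 0.63 in log2 units, adjusted p = 0.136), and 1.30 in log2 units with an adjusted p of 0.0126 when the replicate number was a block in the fit.

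Nrp2 was carried by both precipitations. It had 1, 0, 9 and 1 counts in Input replicates 1 to 4, 5, 3, 12 and 15 in IgG IP, against 38, 32, 53 and 37 in CPEB4 IP. After scaling for depth the 2 precipitations overlapped and both stood apart from Input, with means of 2.56 ± 4.23 CPM in Input, 37.8 ± 13.6 in IgG IP and 32.8 ± 7.65 in CPEB4 IP (SD, n = 4). Log2 differences of Nrp2 from Input were 3.70 (SE 0.89, adjusted p = 0.00226) with CPEB4 and 3.93 (SE 0.92, adjusted p = 0.00269) with IgG, both past the threshold. CPEB4 IP against IgG IP gave -0.23 (SE 0.79, adjusted p = 0.889), and 0.11 (adjusted p = 0.959) when libraries were scaled by their totals. The excess of Nrp2 over Input was thus seen with the control antibody as well, and 3 of the 4 Input libraries held at most 1 count.

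Hif1a, the oxygen-regulated subunit, was higher with CPEB4 than in Input and did not pass the test against the control antibody. Its CPM in replicates 1 to 4 was 34.3, 4.44, 40.5 and 15.3 in Input, 78.7, 30.8, 44.5 and 50.3 in IgG IP, against 182, 112, 105 and 104 in CPEB4 IP. All CPEB4 IP libraries were above all IgG IP libraries, and IgG IP overlapped Input. The means were 23.6 ± 16.7, 51.1 ± 20.2 and 126 ± 37.7 CPM (SD, n = 4). On the log2 scale Hif1a with CPEB4 differed from Input by 2.41 (SE 0.55, adjusted p = 0.00155) and from IgG IP by 1.30 (SE 0.56, adjusted p = 0.188), and IgG IP from Input by 1.12 (SE 0.57, adjusted p = 0.132).

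Arnt, the partner subunit of the HIF dimer, had the largest log2 fold change of the 8 tested members in CPEB4 IP over Input. Its CPM was 12.4, 16.0, 34.6 and 0 in Input replicates 1 to 4, 72.6, 123, 97.8 and 136 in IgG IP, against 416, 499.6, 219.6 and 264 in CPEB4 IP. The 3 groups did not overlap, with CPEB4 IP highest and Input lowest, and replicates 1 and 2 were the higher ones within CPEB4 IP. The means were 15.7 ± 14.3, 107 ± 28.1 and 350 ± 131 CPM (SD, n = 4). Arnt exceeded Input by 4.50 log2 units (SE 0.74, adjusted p = 9.69e-05) in CPEB4 IP and 2.80 (SE 0.72, adjusted p = 0.00514) in IgG IP. The difference of CPEB4 IP from IgG IP, 1.70 (SE 0.67, adjusted p = 0.147), did not pass the threshold.

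Vhl, whose product targets HIF1A for ubiquitination, was the other member called over the control antibody. Its CPM was 81.1, 17.8, 36.5 and 47.7 in Input replicates 1 to 4, 103, 84.6, 44.5 and 76.9 in IgG IP, against 245, 302, 195 and 199 in CPEB4 IP. CPEB4 IP stood above both other groups without overlap, and IgG IP and Input overlapped. The means were 45.8 ± 26.6, 77.2 ± 24.4 and 235 ± 49.6 CPM (SD, n = 4). With CPEB4, Vhl exceeded IgG IP by 1.62 log2 units (SE 0.45, adjusted p = 0.0415), in 4 of 4 replicates, and Input by 2.35 (SE 0.44, adjusted p = 0.000281). IgG IP against Input gave 0.73 (SE 0.45, adjusted p = 0.207). The call over IgG IP was near the threshold and 18 of 27 alternative settings did not make it, with log2 fold changes between 1.18 and 1.79, whereas the call over Input held in all 27.

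Set against the control antibody, 2 of the 8 tested members, Vegfa and Vhl, were called in CPEB4 IP, both higher, where 5.88% of all 8680 features were called, 4.57% higher and 1.30% lower. Vegfb, Hif1a and Arnt had unadjusted p-values of 0.00399, 0.0340 and 0.0217 that did not pass after adjustment. The groups did not overlap for 5 members, with CPEB4 IP higher for Vegfa, Hif1a, Arnt and Vhl and lower for Vegfb, against 23.2% of features that were higher without overlap and 5.91% that were lower. The members' median log2 fold change was 1.25 and that of all tested features 0.24. Scaling moved that second value, to -0.03 with the relative log expression factors of DESeq2 and 0.53 with library totals, and moved the share of calls that were higher from 77.8% to 54.0% and 93.7%. Vegfa was called higher under each, at 1.90 and 2.35.

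Against Input, 7 of the 8 tested members were called in CPEB4 IP, with Vegfa, Nrp1, Nrp2, Hif1a, Arnt and Vhl higher and Vegfb lower. This comparison called 53.9% of all features, 27.6% higher and 26.3% lower, so a call is common there. CPEB4 IP lay wholly above Input for the 6 higher members, as for 30.9% of all features, and wholly below it for Vegfb, as for 24.2%. In IgG IP against Input, 3 members were called, all higher, namely Vegfa, Nrp2 and Arnt, with 41.4% of all features called, 17.5% higher and 23.9% lower. For these 3 IgG IP lay wholly above Input, as for 15.9% of all features, and for Vegfb wholly below, as for 22.6%. Medians of the members were 2.43 and 1.17 in these comparisons, and those of all features 0.29 and -0.07. The 3 comparisons share their libraries pairwise, so their values for a gene are not independent of each other. The longest of the 4 length classes, 2448 to 23858 bases, which holds Nrp1, Nrp2 and Flt1, had a median of 1.28 for CPEB4 IP against Input, and the class of 1345 to 2447 bases, which holds Vegfa, Hif1a, Arnt and Vhl, a median of 1.01. For IgG IP against Input the medians of these classes were 1.11 and 0.67, and for CPEB4 IP against IgG IP 0.10 and 0.38. The part of length in the members' values over Input was not tested.

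**Figure D2:**
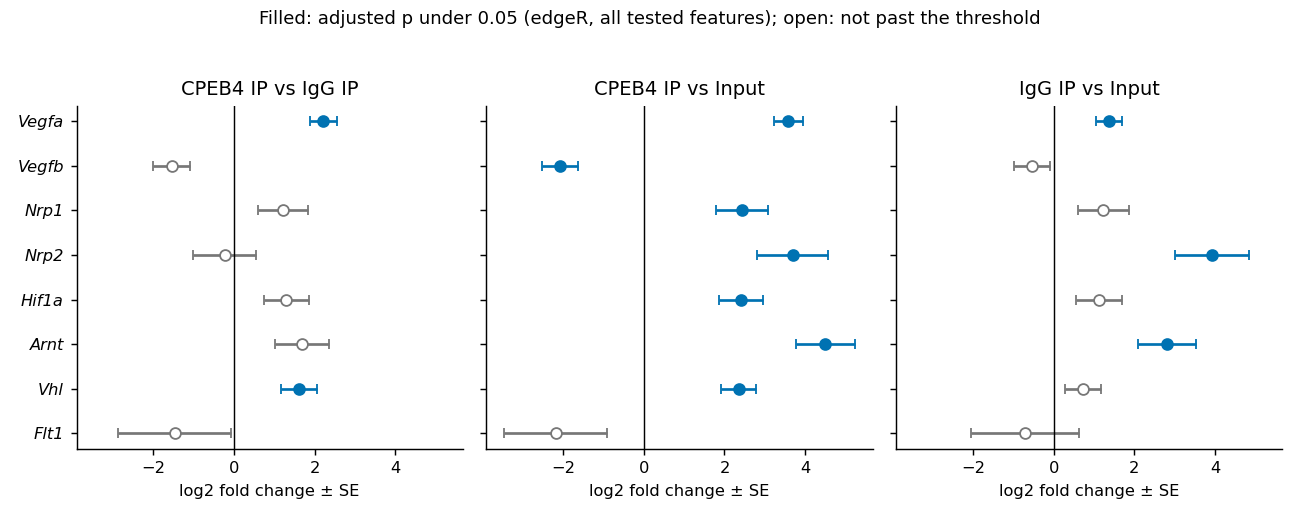
Log2 fold change with its standard error for the 8 tested members in the 3 comparisons, with filled points where the adjusted p was under 0.05. For CPEB4 IP against IgG IP only Vegfa and Vhl are filled. For CPEB4 IP against Input every tested member but Flt1 is filled, and for IgG IP against Input only Vegfa, Nrp2 and Arnt are.

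**Figure D3:**
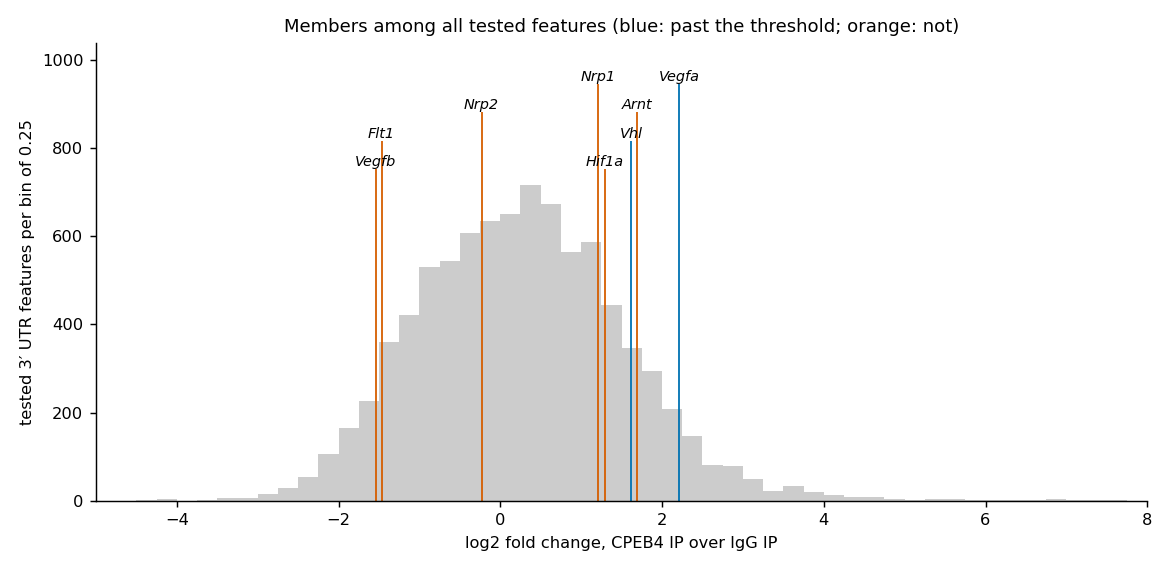
Number of tested features per bin of 0.25 of the log2 fold change of CPEB4 IP against IgG IP, for all 8680 features, with the 8 tested members marked. Vegfa at 2.21 lies in the upper tail and Vegfb at -1.54 in the lower one, and the median of all features is 0.24.

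Ratios between members within a library do not depend on how libraries are scaled, and were compared between CPEB4 IP and IgG IP for 5 pairs with an exact two-sided permutation test over all 70 assignments of the 8 libraries, for which 0.0286 is the smallest possible p. This test takes no account of the pairing by replicate number; exchanges within the 4 pairs, added after the data were seen, allow no p below 0.125, so that form cannot reach the threshold. The log2 ratio of Vegfa to Vegfb counts, with 1 added to each count, was 7.25, 7.80, 5.57 and 5.28 in CPEB4 IP replicates 1 to 4 and 2.96, 2.29, 2.65 and 2.47 in IgG IP. The ratio was higher in every CPEB4 IP library than in any IgG IP library, and its mean was 0.76 ± 0.62 in Input, 2.59 ± 0.29 in IgG IP and 6.48 ± 1.24 in CPEB4 IP (SD, n = 4). It differed between the precipitations by 3.88 (exact permutation p = 0.0286, 0.0476 after adjustment over 5 ratios; higher in 4 of 4 pairs, paired exact p = 0.125), and by 4.90 within replicates 1 and 2 and 2.86 within replicates 3 and 4. Among the ligands, the precipitation with CPEB4 thus held more Vegfa per Vegfb RNA than the control precipitation. The ratio of Vegfa to Vegfc differed by 3.91 with the same p, but Vegfc had at most 1 count in any IgG IP library, so the added count sets that ratio. The adjusted p of 0.0476, here and for Nrp1 to Nrp2 below, is under 0.05 only because that ratio also had the smallest possible p. Those adjusted values are therefore no firm calls.

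Between the co-receptors, the log2 ratio of Nrp1 to Nrp2 was 2.84, 2.87, 3.84 and 4.20 in CPEB4 IP and 2.32, 0.32, 2.11 and 2.43 in IgG IP replicates 1 to 4. All CPEB4 IP libraries were above all IgG IP libraries, by 1.64 on average (exact permutation p = 0.0286, 0.0476 adjusted; higher in 4 of 4 pairs, paired exact p = 0.125), with means of 3.44 ± 0.69 and 1.79 ± 0.99 (SD, n = 4) and 4.92 ± 1.57 in Input. The ratio was thus highest in Input, where Nrp2 had few counts. Among the regulators, the ratio of Hif1a to Arnt differed by -0.40 (exact permutation p = 0.486 before and after adjustment) and that of Hif1a to Vhl by -0.36 (exact permutation p = 0.314, adjusted 0.393), both less than 1 SD between libraries of IgG IP; the latter was lower in 4 of 4 pairs.

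**Figure D4:**
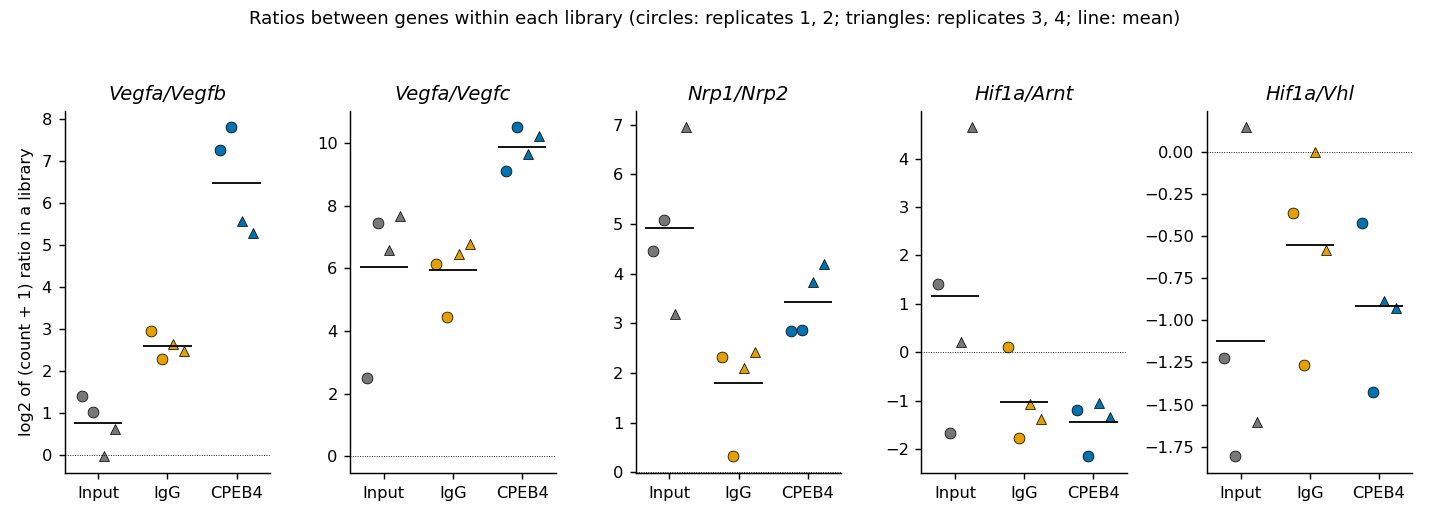
Log2 ratio of the counts of member pairs in each library, 1 count added to each, by group, with circles for replicates 1 and 2, triangles for replicates 3 and 4 and a line at the group mean. The ratio of Vegfa to Vegfb is highest in CPEB4 IP, with a mean of 6.48 against 2.59 in IgG IP, and the ratios of Hif1a to Arnt and to Vhl overlap between the precipitations.

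Levels per kilobase of UTR divide the CPM by length and adjust for nothing else. By this measure Vegfb was the highest member in Input at 205 ± 29.6 CPM per kb. Vegfa was next at 75.6 ± 20.7 (SD, n = 4), and these levels did not overlap. Below them Nrp1 at 28.9 ± 22.6, Vhl at 22.2 ± 12.9, Hif1a at 12.9 ± 9.14, Arnt at 8.52 ± 7.74 and Flt1 at 5.60 ± 6.48 CPM per kb each overlapped its neighbour in this order. Vegfc averaged 20.8 ± 41.6 from a single library, and Nrp2 was lowest at 0.838 ± 1.38. In CPEB4 IP the order was another: Vegfa led with levels of 597 to 1192 CPM per kb, above the range of every other member, the highest of which were 119 to 270 for Arnt and 69.6 to 243 for Nrp1. Vhl at 114, Hif1a at 57.1 to 99.8 and Vegfb at 48.6 CPM per kb followed, each overlapping the member before it, then Nrp2 at 10.7, Vegfc at 3.05 and Flt1 at 1.21. In IgG IP Vegfa, at 175 to 224 CPM per kb, was above Vegfb at 123 to 156 without overlap, so that Vegfb led over Vegfa in Input alone. Only Input was poly(A)-selected. Over Input, the length class of Vegfb had a median log2 fold change of -2.67 with CPEB4 and -2.70 with IgG. For the class of Vegfa the medians were 1.01 and 0.67. The parts of selection and length in this change of order were not tested.

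The wider pathway was described with lists of genes, whose counts stand beside shares of all 8680 features called of 4.57% higher and 1.30% lower for CPEB4 IP against IgG IP, 27.6% and 26.3% for CPEB4 IP over Input, and 17.5% and 23.9% for IgG IP over Input. Of the VEGF, neuropilin and semaphorin ligands and receptors, 14 of 24 listed genes could be tested, and 2 passed the threshold between CPEB4 IP and IgG IP, both higher in CPEB4 IP, with a median log2 fold change of 0.15 against 0.24 for all features. The 2 were Vegfa and Plxna1, a plexin that transmits semaphorin signals with neuropilins (1.47, SE 0.34, adjusted p = 0.0176). Against Input 6 were higher and 3 lower in CPEB4 IP, where 53.9% of all features were called, and 4 were higher and 2 lower in IgG IP, where 41.4% were. Plxna1 was among the higher ones in both, at 4.77 (SE 0.38, adjusted p = 1.01e-07) and 3.30 (SE 0.37, adjusted p = 5.46e-06). The lower ones in both were Plxnd1, the plexin of endothelial guidance (-1.92 in CPEB4 IP and -2.59 in IgG IP), and Gipc1, an adaptor that binds the neuropilin tail (-3.13 and -3.33).

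Of the HIF subunits and their control, 21 of 25 listed genes were tested, and relative to IgG IP 2 were higher with CPEB4 and 2 lower, where 4.57% and 1.30% of all features were, with a median of 0.56. Beside Vhl, Siah1a, a ubiquitin ligase that acts on prolyl hydroxylases, was higher (2.24, SE 0.61, adjusted p = 0.0386). Lower were Tceb2, the elongin B that joins VHL in its ligase (-2.02, SE 0.57, adjusted p = 0.0448), and the prolyl hydroxylase gene Egln2 (-1.65, SE 0.46, adjusted p = 0.0447), whose feature overlaps that of Cyp2t4. The other listed transcripts of the VHL ligase were not called, with 2.99 (SE 1.15, adjusted p = 0.138) for the scaffold Cul2, 1.78 (SE 0.92, adjusted p = 0.283) for the elongin C gene Tceb1 and -0.19 (SE 0.60, adjusted p = 0.879) for Rbx1. Counts over IgG IP were low in this group, with 12 for Tceb2, 4 for Cul2 and 10 for Tceb1. Against Input 10 were higher and 4 lower in CPEB4 IP (27.6% and 26.3% of all features), and 4 were higher and 5 lower in IgG IP (17.5% and 23.9%).

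Of the HIF paralogs and hydroxylases that were tested, only Egln2, given above, was called over IgG IP. Epas1, which encodes HIF2A, had a log2 fold change of -0.64 (adjusted p = 0.443) for CPEB4 IP against IgG IP, while it was higher than Input in CPEB4 IP (2.32, adjusted p = 0.000667) and by 2.96 in IgG IP. Hif3a gave -2.28 (adjusted p = 0.259), the hydroxylases Egln1 0.19 (adjusted p = 0.904) and Egln3 -0.39, and Hif1an, the asparaginyl hydroxylase that blocks HIF1A transactivation, -0.90 (adjusted p = 0.166). The difference between Hif1a and Epas1 was not tested. Arnt2 had 0, 6 and 14 counts over Input, IgG IP and CPEB4 IP and was not tested.

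Of 44 listed HIF target genes 35 were tested, and relative to IgG IP 3 were higher with CPEB4 and 3 lower, with a median of 0.09. The higher ones were the glucose transporter gene Slc2a1 (2.74, SE 0.63, adjusted p = 0.0181), the oxidoreductin gene Ero1l (1.68, SE 0.35, adjusted p = 0.00966) and hexokinase 2, Hk2 (1.56, SE 0.37, adjusted p = 0.0207). The lower ones were the glycolytic enzymes Pgk1 (-1.99, SE 0.40, adjusted p = 0.00855), Aldoa (-1.74, SE 0.48, adjusted p = 0.0426) and Tpi1 (-1.54, SE 0.42, adjusted p = 0.0409), the last of which overlaps the feature of Spsb2. Against Input 13 were higher and 16 lower in CPEB4 IP, of all features 27.6% and 26.3%, and 8 were higher and 15 lower in IgG IP, of all features 17.5% and 23.9%.

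Of 34 other angiogenic and angiostatic factors 22 were tested, and 3 passed the threshold between CPEB4 IP and IgG IP, all higher in CPEB4 IP, where 4.57% of all features were higher, with a median of 1.21. These were Igfbp4, which binds insulin-like growth factors (2.93, SE 0.31, adjusted p = 0.000171), the fibroblast growth factor receptor gene Fgfr1 (1.98, SE 0.31, adjusted p = 0.00222) and the Notch ligand gene Jag1 (3.57, SE 0.68, adjusted p = 0.00666). Against Input 11 were higher and 1 lower in CPEB4 IP, beside 27.6% and 26.3% of all features, and 6 were higher and 1 lower in IgG IP, beside 17.5% and 23.9%.

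Across the 12 libraries the features whose log2 CPM was most like that of Vegfa were Tmbim6 (Pearson r = 0.988), an anti-apoptotic protein of the endoplasmic reticulum, the glutamine synthetase gene Glul (0.985), Actr3 of the actin-branching complex (0.980), the AMP-activated kinase subunit Prkaa1 (0.978) and the kinase Pim3 (0.977). These correlations are descriptions over libraries that share depth and scaling and fall in 3 groups. Among the members Vhl was closest to Vegfa with r = 0.90, rank 186 of 8486 genes, followed by Hif1a at 0.80 and Arnt at 0.79. Nrp2 gave 0.63, Nrp1 0.62 and Flt1 -0.27, and Vegfb, at -0.95 and rank 8443, had nearly the opposite profile.

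The authors' deposited table of their own DESeq2 comparison gives, for the interaction of both precipitations, a log2 fold change of 1.87 for Vegfa (adjusted p = 0.00593, marked higher) and -1.87 for Vegfb (adjusted p = 0.0111, marked lower). In the authors' deposited table Vhl had 1.28 (adjusted p = 0.315, unadjusted 0.0725) and was not marked, and neither were the other 6 members. Of these, Vegfc, Nrp2 and Flt1 have no adjusted p there. Vegfb was thus marked there and missed the threshold of the edgeR fit, and Vhl the reverse, which leaves Vegfa as the member called by both.

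**Figure D5:**
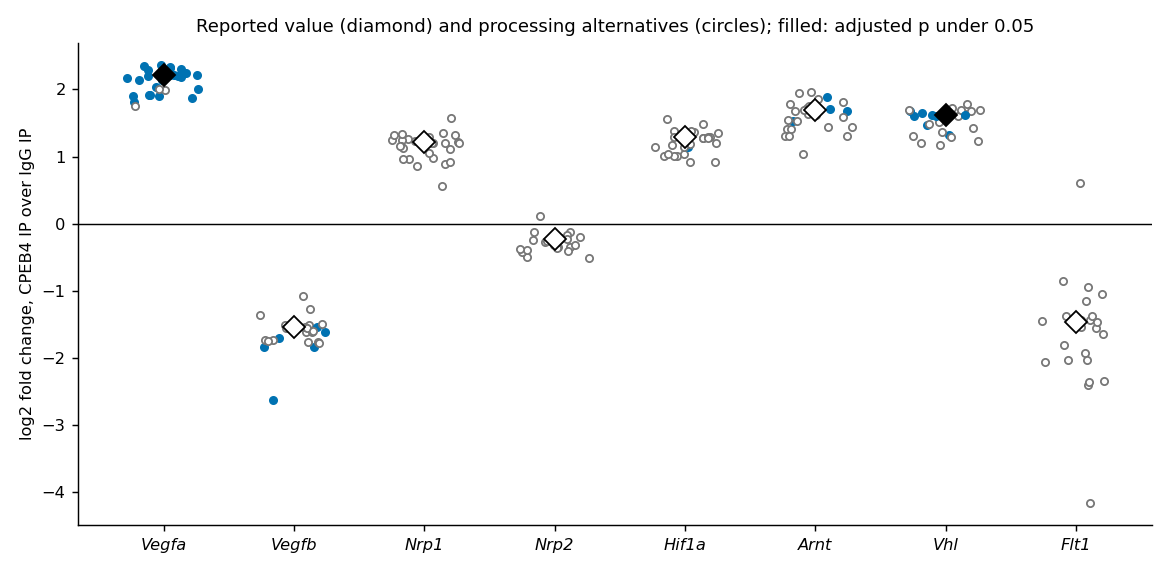
Log2 fold change of each tested member in CPEB4 IP against IgG IP as reported (diamonds) and under the alternative settings (circles), filled where the adjusted p was under 0.05. Vegfa stays between 1.76 and 2.37 and is called in 24 of 27 settings, Vhl in 9 of 27, and Vegfb, which lies below 0 in each of its 26, in 6.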

How the data were processed

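The deposited raw counts per 3′ UTR feature were made by the authors with Bowtie 1.2.3, Bowtie2 2.2.2 and featureCounts on mm10, and their own comparison with DESeq2 1.22.1, per the submitters' processing notes. The log2 fold changes, Wald scores and call scores (higher, none, lower) of that comparison are deposited by the authors as well, and log2 normalised counts, which were not used here; roles, parameters and the strand setting are not given in the sources used here. Libraries were amplified for 12 or 18 cycles, per the labels' protocols, without assigning libraries to either, and counts are reads, not molecules.

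Counts of the 12 libraries were fitted together with edgeR 4.0.16 in R 4.3.3 (TMM scaling, quasi-likelihood test, and the filterByExpr rule on low features). That rule turns a minimum of 10 counts into a CPM at the median library size. A feature had to reach it in as many libraries as the smallest group holds, and 15 counts in all. P-values were adjusted by Benjamini-Hochberg over 8680 features, with a threshold of 0.05. Standard errors are the absolute log2 fold change over the square root of F, fitted with a prior count of 0.125. CPM are per 1e6 of the TMM-scaled library size. Steps were run on simulated counts with a smaller spread between libraries than here and no series difference. That run does not measure their accuracy on these data. DESeq2 1.42.0 was 1 of 27 alternatives per comparison. Of the table, 697 features carry no symbol and were kept in the fit; lists use a gene's feature with the most counts.

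The members, lists and tests were chosen with earlier results of these data known. Named are all members, list genes among the 8 with the smallest adjusted p past the threshold in at least 1 comparison (not all that qualify), the members' paralogs and partners, and, chosen after their values were seen, Cul2, Tceb1 and Rbx1, and the 5 genes most like Vegfa. Deviations from group means correlated between libraries of the same number with r from 0.13 to 0.46 over 12 pairs. Libraries of the same series with another number gave 0.14 to 0.40, and those of other series -0.44 to -0.10. These values followed the series and do not single out the replicate number. The main edgeR fit held the group only. Replicate numbers, taken from the titles, and the series were blocks in alternatives. The motif search of the members' UTRs named in the design was not run, and no UTR sequence was used here.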

Additional observations from a re-analysis of the deposited data

Results flagged for a closer look

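With 4 libraries a group, a library was singled out when its gap to the nearest other, divided by the range, exceeded Dixon's critical value. For normally distributed values chance alone picks out about 1 in 20 groups, and 27 were checked. That rate does not hold for counts near 0. A group with counts in a single library is always singled out, as both Vegfc groups below were. Vegfc in Input replicate 1 reached 32.2 CPM while the other Input libraries were at 0, so its whole Input level rests on that library. Vegfc in IgG IP replicate 2 stood at 7.69 CPM, which is 1 count, against 0 in the others. Nrp2 in Input replicate 3 was at 8.89 CPM from 9 counts, with 0.731 in the nearest library. Hif1a in CPEB4 IP replicate 1 was at 182 CPM, with 112 in the nearest, and all 4 CPEB4 IP libraries still exceeded every IgG IP library.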

How the results depend on the processing

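Vegfa in CPEB4 IP kept its direction over IgG IP in all 27 alternatives and its call in 24 (adjusted p 1.79e-06 to 0.137); replicates 3 and 4 alone gave 1.76, and leaving out libraries 1.87 to 2.37. Vegfb passed the threshold over IgG IP with relative log expression scaling (-1.83, adjusted p = 0.0297), DESeq2 (-1.83, 0.000817), the library series as a block (-1.60, 0.0229), replicates 1 and 2 alone (-2.63, 0.031) and both precipitations alone (-1.70, 0.00557), and ranged from -1.78 to -1.27 over the leave-outs. Vhl lost its call with relative log expression (1.31), library totals (1.72), no filter (1.63), a mean count of at least 50 (1.24), replicates 1 and 2 alone (1.18) and replicates 3 and 4 alone (1.68), and ranged from 1.2003 to 1.79 over the leave-outs. Arnt gained one with no filter (1.70), replicates 1 and 2 alone (1.88) and both precipitations alone (1.53), with leave-outs from 1.30 to 1.95, and Hif1a with both precipitations alone (1.14). Nrp2 turned to 0.11 with library totals and Flt1 to 0.60 with replicates 3 and 4 alone, neither called.

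Against Input, replicates 3 and 4 alone ended the calls of Nrp2 and Arnt in CPEB4 IP (3.06 and 3.87) and in IgG IP (3.40 and 2.83). Flt1 in CPEB4 IP gave 3.40 with replicates 1 and 2 alone and -2.44 with replicates 3 and 4 alone, where it passed. In IgG IP Flt1 gave 7.55 and -3.05 in these, both past the threshold; 3.40 and 7.55 were fitted against no Input count, depend on the prior count and are not sizes. With the replicate block Flt1 gave 0.81 (adjusted p = 0.720) and with the series block 0.77, and over the leave-outs -1.48 to 0.0074, with 0.0024 at another. Nrp1 in IgG IP was called with the replicate block (1.30), the series block (1.36) and replicates 1 and 2 alone (1.68). Leave-outs for IgG IP against Input ranged from 0.95 to 1.64 for Vegfa, 0.78 to 1.70 for Nrp1, 0.61 to 1.49 for Hif1a and 0.27 to 1.16 for Vhl. The replicate block changed no other member's call.

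Calls over IgG IP among all features numbered 510, and 1035 with DESeq2, 881 with the series block and 2272 with both precipitations alone. Library totals gave 494 and a mean count of at least 50 gave 715, the latter with fewer features tested. Replicates 3 and 4 alone gave 0 (edgeR, 1165 at an unadjusted p under 0.05), and the leave-outs 2 to 1135, with 2 without replicate 1. Members called numbered 2, and 1 with library totals, 1 with a mean count of at least 50, 0 with replicates 3 and 4 alone, 5 with both precipitations alone and 0 to 3 over the leave-outs; list genes numbered 15, and 25, 23, 0 and 48 with DESeq2, the series block, replicates 3 and 4 alone and both precipitations alone, and 1 to 25 over the leave-outs. A mean count of at least 50 left 2547 and 2291 calls of all features for CPEB4 IP and IgG IP against Input, from 4676 and 3594, with fewer features tested. Members called in IgG IP against Input numbered 5 with replicates 1 and 2 alone, where 3713 of all features were called, from 3594 in the main fit. Over the leave-outs 2 to 4 members and 2698 to 4540 of all features were called. The Vegfa to Vegfb ratio differed by 4.90 within replicates 1 and 2 and 2.86 within replicates 3 and 4. With the replicate block, as exchanges within pairs, the differences of 3.88 (Vegfa to Vegfb), 3.91 (Vegfa to Vegfc) and 1.64 (Nrp1 to Nrp2) had an adjusted p of 0.156, from 0.125, the smallest p that 4 pairs allow. Vegfb, Nrp2 and Flt1 have no value with a mean count of at least 50, and Flt1 has no adjusted p with DESeq2 over IgG IP. Where a call changed, the cause was not tested. Depth was lowest in IgG IP, where Vegfb, Hif1a, Nrp2, Flt1 and Vegfc had 48, 44, 35, 10 and 1 counts over 4 libraries.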
